A study of Homo sapiens with 4 samples.

Results

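HRAS, NRAS, ARAF, BRAF, MAP2K1, MAP2K2 and MAPK3 encode the core relay of the RAS pathway. These 7 genes were taken by symbol from the 60623 genes of the deposited table, and all 7 passed the filter on low counts that left 14862 genes for testing. Shares within a tier are over these genes alone. The genes were followed in T24 cells, a line established from a human bladder carcinoma, in 2 control libraries and 2 libraries from cells overexpressing CBX7, a Polycomb protein that binds methylated histone H3 and takes part in gene silencing. Full-length CBX7 was expressed from a FLAG-tagged pCDH plasmid, and the sources used here do not give what the control cells carried, nor whether each line was a pool or 1 clone. Total RNA was extracted, converted to cDNA with random primers and sequenced on an Illumina HiSeq instrument. No source says that libraries of a group came from separate cultures, so p-values measure only the spread between these libraries, which may be technical.

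RAS proteins are small GTPases at the inner face of the plasma membrane that are active while bound to GTP. Active RAS recruits RAF kinases to the membrane, RAF phosphorylates MEK (the MAP2K genes), and MEK phosphorylates ERK (MAPK3 encodes ERK1), which acts on kinases and transcription factors that drive proliferation. Each tier of the relay has several paralogs, and mutations of this pathway are common in urothelial carcinoma.

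Summed expected counts were 20800910 to 25135488 per library. CBX7 itself had 261 and 203 counts in the control libraries and 42852 and 35641 counts in the CBX7 libraries, so the 4 libraries followed their labels (log2 fold change 7.35, SE 0.18, adjusted p = 0.000584, edgeR quasi-likelihood test). KRT7 was the highest urothelial and epithelial marker at 1197 to 1465 TPM (a relative transcript level scaled by gene length and library), and 7 of 16 such markers exceeded 3 counts in every library. The uroplakins UPK1A, UPK1B, UPK2 and UPK3A stayed at or under 3 counts, KRT5 was at 0, and VIM, a mesenchymal filament gene, reached 2206 to 2757 TPM. Of leukocyte markers only CD14 exceeded 3 counts in every library (0.79 to 1.64 TPM) and none of the 4 endothelial markers did so, CDH5 being the highest at 0.04 to 0.3 TPM. The summed level of the 6 mesenchymal markers was 3511 to 3544 TPM in control and 2657 to 2769 TPM in CBX7 libraries. That of the 16 urothelial and epithelial markers was 3182 to 3281 TPM and 3385 to 3761 TPM. Of the markers in either list 0 were called (edgeR, adjusted p under 0.05). In TPM the groups did not overlap for 29.6% of all genes tested, and the part of these markers in the results was not tested. CBX7 replicate 1 stood apart from the other 3 libraries: its short genes were high and its long genes low, and the members' results are therefore also given without it.

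All 7 genes were transcribed in every library, and their levels differed within the RAS, RAF and MEK pairs. HRAS was the highest at 161 to 215 TPM and MAP2K2 came next at 88.3 to 105 TPM. ARAF, MAPK3, NRAS and MAP2K1 followed with mean levels of 44.0, 43.9, 43.2 and 41.8 TPM, and each of their ranges over the 4 libraries overlapped that of its neighbour in the order. BRAF was the lowest at 3.03 to 6.2 TPM. Among the 14862 genes tested, 95.0% had a lower mean TPM than HRAS, 89.9% had a lower one than MAP2K2, 78.1% to 79.1% had a lower one than the 4 middle genes, and 32.8% had a lower one than BRAF. The ranges of HRAS, MAP2K2, the middle group and BRAF did not overlap one another.

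**Figure D1:**
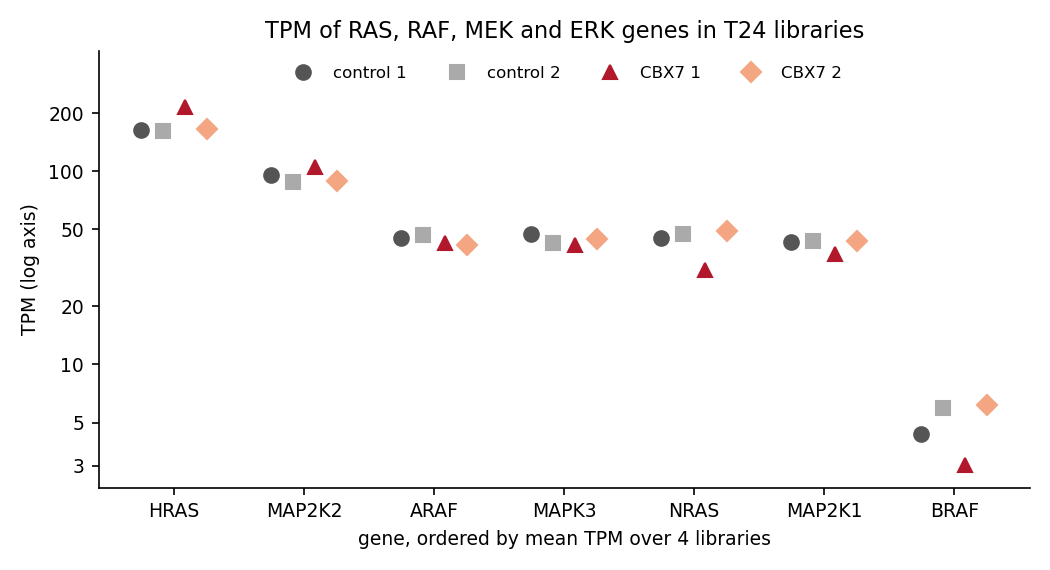
TPM (log axis) of the 7 genes in each of the 4 libraries, ordered by mean level, with circles and squares for control replicates 1 and 2 and triangles and diamonds for CBX7 replicates 1 and 2. HRAS lies highest at 161 to 215 TPM and BRAF lowest at 3.03 to 6.2 TPM. For NRAS, BRAF, MAP2K1 and MAPK3 the lowest point is CBX7 replicate 1.

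None of the 7 genes passed an adjusted p under 0.05 between CBX7 and control cells, against 0.0202% of all genes tested (3 of 14862), and none passed an unadjusted p under 0.05, against 4.74% of all genes. Adjusted p-values of the 7 genes ran from 0.951 to 0.994 (edgeR quasi-likelihood test, Benjamini-Hochberg over 14862 genes). Fitted log2 fold changes were between -0.15 for BRAF and 0.39 for HRAS, with a median of -0.0094 beside 0.0017 over all genes. Positive values were found for 3 genes and negative values for 4. In CPM (counts scaled to library size) with TMM factors (trimmed mean of M-values), the groups did not overlap for 1 of the 7 genes, MAP2K1, while this held for 30.2% of all genes tested. In TPM the groups did not overlap for HRAS and ARAF, and for 29.6% of all genes tested.

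HRAS (ENSG00000174775, chr11:532242-537287 on the minus strand in GRCh38, GENCODE 29) and NRAS (ENSG00000213281, chr1:114704469-114716894, minus strand) encode GTPases that share the surface by which effectors such as RAF are bound and differ in the C-terminal tail that carries the lipid anchors. Their coding sequences were identical at 73.0% of 567 bases and their proteins at 85.2% of 189 residues, and the longest identical stretch of coding bases was 14.

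HRAS had 162 and 161 TPM in the control libraries and 215 and 166 TPM in CBX7 replicates 1 and 2. The first CBX7 library was high and the second lay within 5 TPM of the controls. These levels came from 2489 and 2090 counts, and from 4010 and 2240 counts. The log2 fold change was 0.39 (SE 0.25), a fold of 1.31 with a 95% interval of 0.848 to 2.01. Without CBX7 replicate 1 it was -0.020 (SE 0.11), so the positive value rested on that library.

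NRAS was low in the library where HRAS was high. Its level was 45.2 and 47.4 TPM in control cells and 30.9 and 49.3 TPM in CBX7 replicates 1 and 2, from 3491 and 3074 counts and 2839 and 3357 counts. The lowest and the highest of the 4 values were both CBX7 libraries, so the groups overlapped. The fold change was 0.915 (95% interval 0.692 to 1.21), or -0.13 on the log2 scale (SE 0.16), and 0.042 without CBX7 replicate 1.

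The balance of the RAS pair was read from the same levels. Of the summed TPM of HRAS and NRAS, HRAS took 78.2% and 77.3% in the control libraries, against 87.4% and 77.1% in CBX7 replicates 1 and 2, which is 3.59, 3.40, 6.95 and 3.36 times the NRAS level. Only CBX7 replicate 1 departed from a share near 77% to 78%. The mean share was 77.8% ± 0.669 (SD, n = 2) in control and 82.2% ± 7.33 (SD, n = 2) in CBX7 cells, a difference of 4.48 percentage points (two-sided exact permutation p = 1). With 2 libraries a group this test cannot give a p under 0.333. Without CBX7 replicate 1 the difference was -0.705 points. Together the pair reached 208 and 209 TPM in control and 245 and 215 TPM in CBX7 cells. These do not overlap (exact permutation p = 0.333), as for 29.6% of single genes tested.

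**Figure D2:**
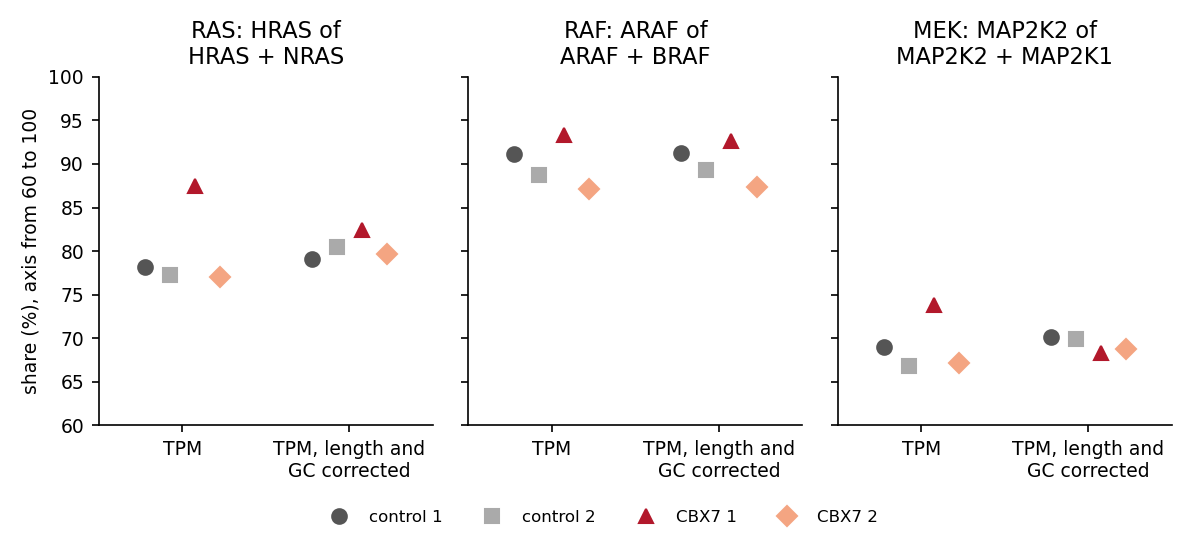
Share (%, axis from 60 to 100) of the named paralog in the summed TPM of its pair for each of the 4 libraries, from deposited TPM and after the length and GC correction. The HRAS share is 87.4% in CBX7 replicate 1 and 77.1% to 78.2% in the other libraries, and with the correction it spans 79.1% to 82.4%.

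ARAF (ENSG00000078061, chrX:47561100-47571920, plus strand) and BRAF (ENSG00000157764, chr7:140719327-140924928, minus strand) encode serine/threonine kinases that bind active RAS and phosphorylate MEK, BRAF being the family member with high basal activity. Their coding sequences were identical at 67.0% of aligned bases and 62.4% of aligned residues, with a longest identical stretch of 21 bases. The stretch around the catalytic loop is shown as a conserved part of both kinase domains, in codons 422 to 433 of ARAF (exon 12, chrX:47568997-47569032) and 569 to 580 of BRAF (exon 14, chr7:140754188-140754223), with differing bases in capitals:
ARAF: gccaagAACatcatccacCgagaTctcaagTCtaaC
BRAF: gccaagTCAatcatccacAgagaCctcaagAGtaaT
Of these 36 bases 8 differed, and of the 12 residues 1.

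The fitted change of ARAF was near 0, with the CBX7 libraries on either side of the controls in scaled counts. It had 45.2 and 46.7 TPM in control and 42.3 and 41.8 TPM in CBX7 cells, from 1634 and 1376 counts and 1783 and 1325 counts. In TPM both CBX7 values lay below the controls, and in scaled counts they were 73.8 and 59.3 CPM against 68.5 and 65.5 CPM. The fold change was 0.994 (95% interval 0.756 to 1.31). Without CBX7 replicate 1 the log2 fold change was -0.17 (SE 0.11, adjusted p = 0.746, edgeR).

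BRAF varied more between libraries, relative to its level, than the other members. Its level was 4.37 and 5.95 TPM in control and 3.03 and 6.2 TPM in CBX7 cells, and its expected counts were 581 and 644, and 431 and 709. Both ends of the range were CBX7 libraries, and the control libraries differed as well. The fold change was 0.901 with an interval of 0.542 to 1.5, the widest of the 7 in log2 units (-0.88 to 0.58), and without CBX7 replicate 1 the log2 fold change turned from -0.15 to 0.21 (SE 0.12).

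The level of BRAF depended on the gene length used. Dividing count by TPM gives the length that went into the TPM, and for BRAF that was 3.48 times the deposited length of 2549 bases relative to the median gene, while the other 6 genes lay between 0.865 and 1.21 times. On TPM, ARAF took 91.2% and 88.7% of the RAF pair in control and 93.3% and 87.1% in CBX7 cells. From counts divided by the deposited length, the ARAF share was 74.1% and 68.5% in control and 80.8% and 65.5% in CBX7 cells. ARAF exceeded BRAF in every library on both scales, and how far depended on the length used. The difference between groups on TPM was 0.254 points (exact permutation p = 1), and -2.87 points without CBX7 replicate 1.

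MAP2K1 (ENSG00000169032, chr15:66386817-66492312, plus strand) and MAP2K2 (ENSG00000126934, chr19:4090321-4124129, minus strand) encode MEK1 and MEK2, dual-specificity kinases that RAF activates by phosphorylating serines of the activation loop. Their coding sequences matched at 75% of bases and 81.9% of residues, with a longest shared stretch of 38 bases. This was the closest pair in coding bases.

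MAP2K2 had 95.7 and 88.3 TPM in control and 105 and 88.9 TPM in CBX7 cells, from 2291 and 1825 counts and 3029 and 1895 counts. CBX7 replicate 1 was again the highest library, and the other CBX7 library lay between the controls. The fold change was 1.15 (95% interval 0.795 to 1.66, log2 0.20, SE 0.21), and the log2 value without CBX7 replicate 1 was -0.10 (SE 0.11).

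MAP2K1 was more even. Its level was 43.0 and 43.8 TPM in control and 37.2 and 43.4 TPM in CBX7 cells, from 2118 and 1911 counts and 2040 and 1891 counts. In scaled CPM both CBX7 values (84.5 and 84.6) lay below both controls (88.8 and 91.0), by a fold of 0.941 (95% interval 0.758 to 1.17). Without CBX7 replicate 1 the log2 fold change was -0.082, close to the -0.088 of all 4 libraries.

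MAP2K2 accounted for 69.0% and 66.9% of the MEK pair in control and 73.8% and 67.2% in CBX7 cells. The difference of 2.59 points was within the spread of the CBX7 libraries (SD 4.71, n = 2, exact permutation p = 0.667), and it was -0.742 points without CBX7 replicate 1. The summed MEK level was 139 and 132 TPM in control and 142 and 132 TPM in CBX7 cells. The summed RAF level was 49.6 and 52.6 TPM in control and 45.3 and 48.0 TPM in CBX7 cells. These values did not overlap (exact permutation p = 0.333, the least this test can give), as for 29.6% of single genes tested. The sum rests on the BRAF length, and ARAF, its larger part, overlapped between groups in scaled counts.

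MAPK3 (ENSG00000102882, chr16:30114105-30123506, minus strand) encodes ERK1, which MEK activates by phosphorylating a threonine and a tyrosine of its activation lip. The lip, codons 197 to 210 in exon 4 (chr16:30118077-30118118), is shown with the codons of the Thr-Glu-Tyr motif in capitals:
MAPK3: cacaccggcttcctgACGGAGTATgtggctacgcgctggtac
The level of MAPK3 was 47.5 and 42.3 TPM in control and 41.5 and 44.5 TPM in CBX7 cells. The expected counts were 1067 and 872, and 1222 and 902. The 2 groups overlapped on either scale, and the fold change was 1.05 (95% interval 0.798 to 1.40), or 0.077 on the log2 scale (SE 0.16). It was -0.091 without CBX7 replicate 1.

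In CBX7 replicate 1 the genes other than BRAF were ordered by length, the shorter ones higher. Against the mean of the other 3 libraries, on log2 CPM with 0.5 added, HRAS (1070 bases) was 0.71 higher, MAP2K2 (1734 bases) 0.49, MAPK3 (1787 bases) 0.26 and ARAF (2504 bases) 0.20. MAP2K1 (3410 bases) was at -0.060 and NRAS (4326 bases) at -0.33. Genes of like length, within 10%, had medians of 0.39, 0.24, 0.23, 0.12, -0.031 and -0.16 in that library. HRAS, MAP2K2, MAPK3 and ARAF stood above the median for their length and MAP2K1 and NRAS below it, with HRAS and MAP2K2 past the upper quartiles of 0.51 and 0.38. BRAF stood farthest from the genes of its deposited length, at -0.67 against a median of 0.11. By the longer length that its TPM implied, BRAF would stand with genes over 7000 bases, whose median in this library was -0.49 and lower quartile -0.71.

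Over the 11077 genes that averaged 100 counts or more, the Spearman correlation of this deviation with gene length was -0.68 in CBX7 replicate 1. It was 0.16 and 0.57 in the control libraries and 0.61 in CBX7 replicate 2, and the 4 values share their libraries. With transcript GC content the correlations were 0.45 in CBX7 replicate 1 and -0.43 to -0.088 in the others. HRAS, MAP2K2 and MAPK3 are also GC-rich (63.3%, 65.5% and 62.7% of transcript bases), and NRAS is not (38.4%).

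**Figure D3:**
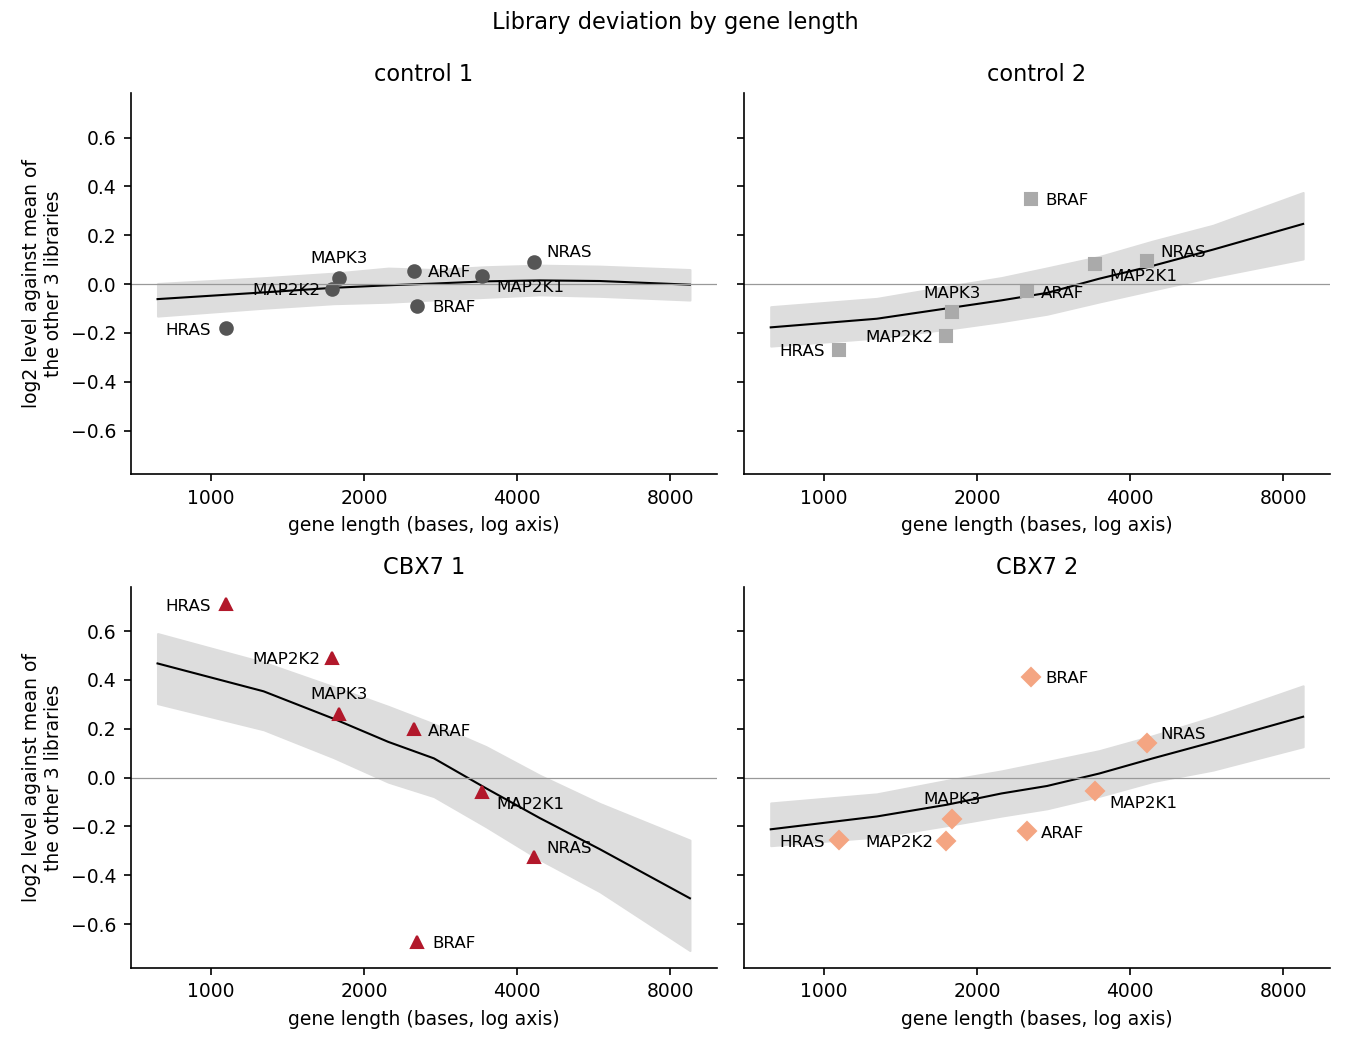
Deviation of each library from the mean of the other 3 (log2 CPM) against deposited gene length (log axis), 1 panel per library, with the black line and grey band for the median and quartiles of 11077 genes in length bins and the symbols for the 7 genes. In CBX7 replicate 1 the line falls with length and the genes run from 0.71 for HRAS to -0.33 for NRAS, with BRAF, placed at its deposited length, below the band at -0.67.

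After a correction of each library's trend with length and GC content, the log2 fold changes lay between -0.13 and 0.080. HRAS was at 0.080 (SE 0.088), NRAS at -0.049 (SE 0.076), ARAF at -0.11 (SE 0.080) and BRAF at -0.13 (SE 0.28). MAP2K1 was at -0.057 (SE 0.070), MAP2K2 at -0.077 (SE 0.076) and MAPK3 at -0.13 (SE 0.075). None passed the test, with adjusted p-values of 0.756 to 0.903 (edgeR). MAP2K2 and MAPK3 turned from positive to negative, HRAS alone kept a positive value, and the standard error of HRAS fell from 0.25 to 0.088. The HRAS share of its pair then differed by 1.20 points between groups and the MAP2K2 share by -1.51 points (exact permutation p = 0.667 and p = 0.333).

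Which CBX7 library was kept decided what the test called. With CBX7 replicate 2 left out, so that a single CBX7 library is assumed to vary like the controls, 4 of the 7 genes passed: HRAS (log2 0.70, adjusted p = 9.21e-10), MAP2K2 (0.45), NRAS (-0.32) and BRAF (-0.62). That fit called 35.5% of all genes tested. With CBX7 replicate 1 left out, it called 2.59% of all genes and 0 of the 7, whose adjusted p-values were 0.624 to 0.987 (edgeR).

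**Figure D4:**
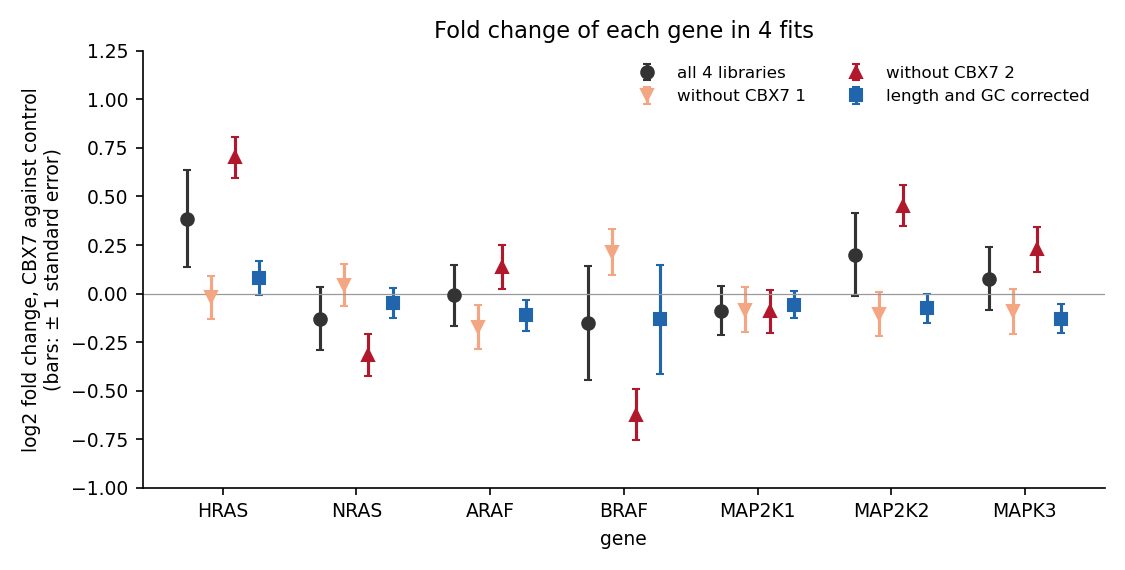
Log2 fold change (CBX7 against control, bars ± 1 standard error) of the 7 genes with all 4 libraries, without CBX7 replicate 1, without CBX7 replicate 2 and after the length and GC correction. HRAS runs from -0.020 without CBX7 replicate 1 to 0.70 without CBX7 replicate 2, and MAP2K1 stays between -0.091 and -0.057 in the 4 fits.

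Some reads at these genes could belong elsewhere. The 5 pseudogenes ARAFP1, ARAFP2, ARAFP3, BRAFP1 and MAP2K1P1 all had 0 counts in every library, a value that allows up to 3 counts. BRAF overlaps the mitochondrial complex I gene NDUFB2 over 3464 bases on the opposite strand, and NDUFB2 had 1106 and 879 counts in control and 1649 and 953 in CBX7 cells, more than BRAF itself. MAP2K1 overlaps SNAPC5 over 2178 bases (212 to 342 counts) and the antisense RNA AC116913.1 over 3452 bases (14.9 to 19.9 counts). ARAF meets SYN1 over 23 bases, and SYN1 had at most 1 count. BRAF also overlaps RNU6-85P, and MAP2K1 also overlaps ATP5MFP6 and RPL35AP32, all at 0 counts. These overlaps are of whole gene spans, introns included, and the overlap of exons was not computed. Strand use in the library kit and the counting is not given in the sources used here. How many reads, if any, were shared with such partners is therefore not known.

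CpG-rich promoters are a common place of Polycomb binding, and those of most of the 7 genes held many CpG. In RefSeq (GRCh38.p14), the 300 bases that span each transcription start held 40 CpG (the letters CG, read the same on both strands) for HRAS, 39 for MAP2K2, 38 for MAPK3 and 34 for MAP2K1. NRAS had 25, ARAF 23 and BRAF 16. The median of 35116 promoters was 14, and 52.5% of them had fewer CpG than BRAF and 92.4% fewer than HRAS. The binding of CBX7 was not measured in these libraries.

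Genes that act on the relay were described from 8 lists of 101 genes, of which 92 were tested. None was called (edgeR, adjusted p of 0.490 or more), and 5 had an unadjusted p under 0.05, 2 of them higher and 3 lower in CBX7 cells, where all genes gave 509 higher and 196 lower. These 5 are 5.43% of the genes tested in the lists, near the 4.74% of all genes.

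Of the 12 RAS activators, adaptors and exchange factors that load RAS with GTP, 10 were tested, with a median log2 fold change of -0.20 and 9 negative values. Among those averaging 50 counts or more, GRB2, the adaptor that brings SOS to receptors, was the highest at 0.048. GAB2, a docking protein, was the lowest at -0.51 (SE 0.21), and at -0.26 without CBX7 replicate 1. RASGRF2, with 6 to 16 counts, was at -0.54 (SE 0.54). The 12 RAS inactivators, which include GTPase-activating proteins, gave a median of -0.19 over 10 tested genes, with RASAL1 and RASAL3 at 0 counts. DAB2IP was the highest at 0.32 (SE 0.14), and without CBX7 replicate 1 it was at 0.43. Both lists had more negative than positive values where all genes were split into 7472 positive and 7390 negative, and without CBX7 replicate 1 the medians turned to 0.062 for activators and 0.080 for inactivators. They were -0.67 and -0.46 without CBX7 replicate 2. After the length and GC correction of all 4 libraries they stayed negative, at -0.16 and -0.11.

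The 12 genes of RAS lipid anchoring, which encode the enzymes and carriers of prenyl and palmitoyl groups, were all tested. Their median was -0.020, from LYPLA1 at -0.087 to ABHD17A, a depalmitoylase, at 0.26 (SE 0.19). Without CBX7 replicate 1 these genes were at 0.0017 and 0.011. The median was 0.015 without control replicate 1, 0.023 without CBX7 replicate 2 and -0.067 after the length and GC correction. It was -0.013 without control replicate 2 and without CBX7 replicate 1. The 9 tested RAS-related GTPases had a median of -0.017, with RRAS at 0.15 and RRAS2 at -0.12, or -0.13 and -0.14 without CBX7 replicate 1. Their median was -0.070 without CBX7 replicate 1, -0.053 without CBX7 replicate 2 and -0.10 after the length and GC correction. MRAS, which forms a phosphatase complex with SHOC2 that acts on RAF, had 53 and 50 counts in control and 32 and 32 counts in CBX7 cells, a log2 fold change of -0.74 (SE 0.27) that did not pass the adjusted test. The 15 tested scaffolds and regulators had a median of -0.0027, from IQGAP1 at -0.26 (SE 0.28) to ARRB2 at 0.37 (SE 0.21), and CNKSR2 was at 0. Without CBX7 replicate 1 IQGAP1 was at 0.082, ARRB2 at 0.081 and the median at 0.016. The median was -0.080 without CBX7 replicate 2.

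The parallel MAP kinases, the p38, JNK and other branches, held both genes that were higher at an unadjusted p under 0.05. MAPK11, encoding p38 beta, had 8.05 and 9.32 TPM in control and 15.5 and 14.7 TPM in CBX7 cells (log2 fold change 0.87, SE 0.19, adjusted p = 0.490, edgeR). MAPK13, encoding p38 delta, had 4.56 and 4.69 TPM in control and 7.93 and 7.91 TPM in CBX7 cells, a log2 fold change of 0.61 (SE 0.13). MAP2K6, an activator of p38, had 2.85 and 2.29 TPM in control and 0.36 and 1.12 TPM in CBX7 cells (-1.19, SE 0.36). Without CBX7 replicate 1, which leaves a single CBX7 library, the log2 fold changes of the 3 genes were 0.65, 0.56 and -0.75. With all 4 libraries and a block for replicate number the 3 genes passed (adjusted p = 4.88e-05, 0.0125 and 0.000122, edgeR). That fit called 361 of 14862 genes, and what the number marks is not given. The 3 genes passed in 4, 3 and 3 of 12 alternatives with all 4 libraries. The median over the 15 tested genes was -0.035, or 0.021 and -0.074 without CBX7 replicate 1 and 2, and MAPK4 was at 0 counts.

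Downstream, the 10 ERK substrates had a median of -0.15, which was -0.036 without CBX7 replicate 1 and -0.35 without CBX7 replicate 2. RPS6KA2, a ribosomal S6 kinase, had 106 and 81 counts in control and 34 and 45 counts in CBX7 cells (-1.28, SE 0.28, adjusted p = 0.490, edgeR). It was at -1.04 without CBX7 replicate 1. With the block for replicate number it passed (adjusted p = 0.00225, edgeR), and it did so in 3 of 12 alternatives with all 4 libraries. Its paralog RPS6KA1 was at 0.16 (SE 0.13). The 11 genes of transcriptional ERK output, such as the phosphatases that ERK activity induces, had a median of 0.0049, or 0.085 and -0.14 without CBX7 replicate 1 and 2. DUSP5 had 15.4 and 15.2 TPM in control and 15.3 and 17.01 TPM in CBX7 cells, and DUSP4 had 0.8 and 0.91 TPM and 0.54 and 0.71 TPM. Their log2 fold changes were 0.19 (SE 0.14) and -0.36 (SE 0.22). The output list had 6 positive and 5 negative values.

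**Figure D5:**
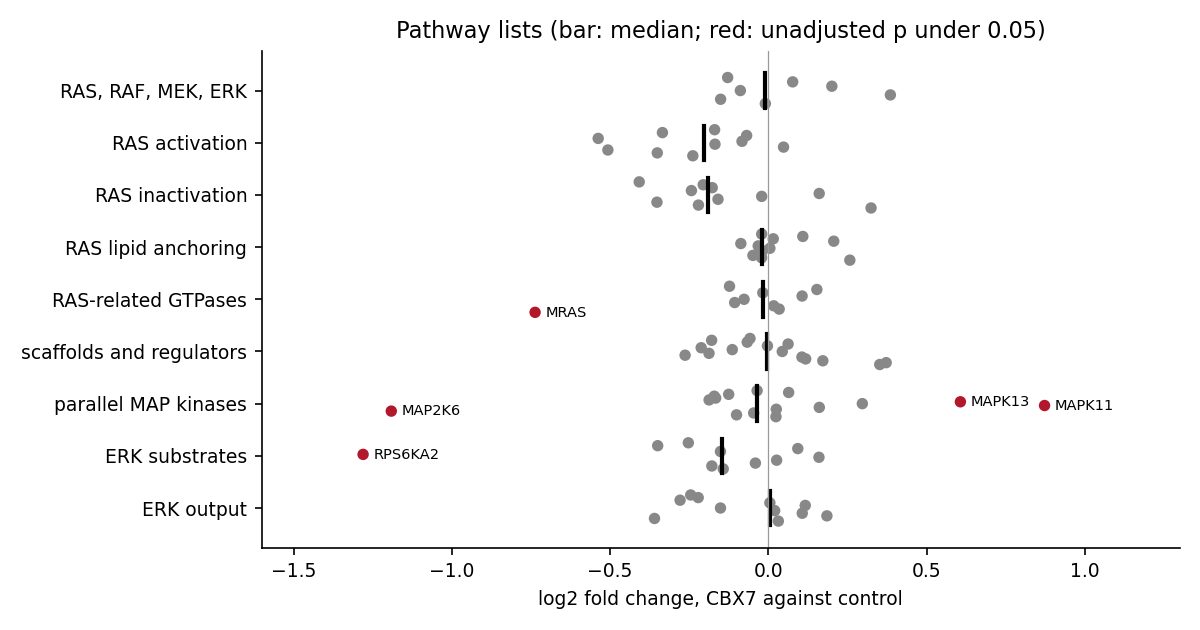
Log2 fold change (CBX7 against control) of every tested gene in the 7-gene relay and in 8 pathway lists, with a bar at each median and red for an unadjusted p under 0.05. MAPK11 and MAPK13 lie at 0.87 and 0.61 and MRAS, MAP2K6 and RPS6KA2 at -0.74, -1.19 and -1.28, outside the range of the relay genes, -0.15 to 0.39.

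The pathway gene most like each member over the 4 libraries was named by the smallest Euclidean distance of centred log2 CPM, among 92 candidates. For HRAS it was ARRB2 (distance 0.16), the least close of the 7, and for NRAS it was MAPK14 (0.078). ARAF lay closest to MAP2K3 (0.046), BRAF to EPHA4 (0.059), MAP2K1 to MKNK1 (0.050), MAP2K2 to CDC37 (0.061) and MAPK3 to PEBP1 (0.048). The likeness of BRAF and EPHA4 was on CPM and not on TPM. EPHA4 had 1.91 and 1.77 TPM in control and 1.73 and 1.78 TPM in CBX7 cells, while BRAF ranged from 3.03 to 6.2 TPM. These distances rest on 4 libraries and include the trend with length: NRAS and MAPK14 were both low in CBX7 replicate 1 (30.9 and 15.5 TPM, against 45.2 or more and 23.5 or more elsewhere).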

How the data were processed

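RNA-seq of 2 control and 2 CBX7-overexpressing T24 libraries was analysed, grouped by sample title. The authors deposited expected counts (88.2% to 88.9% of values whole) and TPM values per gene and library, with gene length. The submitters' processing notes name cutadapt 1.9.1, HISAT2 2.0.1, HTSeq 0.6.1, DESeq2 and hg19, with no role. HTSeq gives whole counts, so which tool made this table is not given in the sources used here. The table has no coordinates. Of its identifiers, 58516 (96.5%) are in GENCODE 29 (GRCh38), which gave loci, GC content and coding sequences. Promoters were from RefSeq (GRCh38.p14), and all 7 genes matched. The authors' columns of fold change, p-value, adjusted p-value and significance, and their mean TPM, were not used.

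Deposited counts were rounded, passed through filterByExpr and normalized by TMM. The quasi-likelihood functions glmQLFit and glmQLFTest of edgeR 4.0.16, run in R 4.3.3, compared CBX7 with control, and p-values of 14862 genes were adjusted after Benjamini and Hochberg. Levels between genes and paralog shares used the deposited TPM, with no value added. Shares and tier sums were compared by two-sided exact permutation tests in SciPy 1.17.1. The length and GC correction subtracted, per library, a natural spline of 5 degrees of freedom fitted to genes averaging 100 counts or more. The code was also run on simulated counts of independent libraries with the same spread for every gene. That setting is unlike these libraries, so it does not bear on how the test behaves here. Intervals of fold changes are at 95%. Limits from 0 counts cover counting error only, 3 counts being 0.119 to 0.144 CPM.

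The 7 genes and the lists were chosen with earlier results of these data known. Named genes were the 7 members, CBX7, each list's largest rise and fall among genes averaging 50 counts or more, each member's nearest list gene, copies, overlapping neighbours, and the highest and zero markers. MAPK13, MRAS, RASGRF2, the other keratin and uroplakin names and list genes at 0 were named after their values were seen. Alternatives were DESeq2 1.42.0 size factors and Wald test, upper-quartile scaling, no filter, a minimum of 10 counts per library, the newer quasi-likelihood form, a replicate block, the length and GC corrections with and without it, an adjusted p under 0.01, counts or TPM plus 1 for shares, and each replicate left out. Correction on the length implied by count and TPM, the block joined with length and GC, and shares from counts over deposited length were chosen after seeing the data. Some named genes and sequences are not reported here.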

Additional observations from a re-analysis of the deposited data

How the results depend on the processing

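None of the 7 genes was called in any of 12 alternatives with all 4 libraries (84 values), and 8 of those values changed sign. MAPK3 went to -0.024 with the length correction, to -0.13 with the length and GC correction and to -0.043 with the implied-length correction, MAP2K2 to -0.077 with the length and GC correction, and BRAF to 0.00042 with the implied-length correction. The lowest adjusted p in these alternatives was 0.439 for HRAS (edgeR and DESeq2). The ARAF share changed to -0.318 points and the MAP2K2 share to -1.51 points with the length and GC correction.

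Leaving out each replicate gave ranges of -0.020 to 0.70 for HRAS, -0.32 to 0.042 for NRAS, -0.17 to 0.14 for ARAF, -0.62 to 0.21 for BRAF, -0.11 to -0.072 for MAP2K1, -0.10 to 0.45 for MAP2K2 and -0.091 to 0.23 for MAPK3. The HRAS share then ran from -0.705 to 9.66 points, the ARAF share from -2.87 to 3.38 points and the MAP2K2 share from -0.742 to 5.92 points. Calls among the 7 genes ranged from 0 to 4, in the pathway lists from 0 to 35 and over all genes from 45 to 5491. Leaving out CBX7 replicate 1 turned HRAS, NRAS, BRAF, MAP2K2, MAPK3 and the 3 shares, and leaving out CBX7 replicate 2 turned ARAF (0.14). Leaving out control replicate 2 turned the ARAF share (-0.989 points) and BRAF (0.024), and control replicate 1 turned ARAF (0.019).

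Over all genes, 3 calls became 265 without a filter, 67 with DESeq2's Wald test, 27 with the implied-length correction, 1 at an adjusted p under 0.01 and 705 at an unadjusted p. Without a filter, 3 genes of the pathway lists were called. The cause was not tested. MAPK11 passed in 4 of the 12 alternatives, MAPK13, MAP2K6 and RPS6KA2 in 3 each, DAB2IP in 1 and MRAS in 0.

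The titles share replicate numbers, but no source says what a number marks. Deviations of same-numbered libraries correlated at r = 0.38 across 14862 genes and at 0.62 across the 11077 averaging 100 counts or more, genes that are not independent, and with 2 pairs this is a hint only. With the replicate block, calls over all genes were 361, with the length correction 398 and with the length and GC correction 147. In the pathway lists they were 4 (MAPK11, MAPK13, MAP2K6 and RPS6KA2), 5 (these and DAB2IP) and 2 (MAPK11 and MAPK13). In the 7 genes they were 0. With the block, MAPK3 was at -0.024 with the length correction and at -0.13 with the length and GC correction, where MAP2K2 was at -0.078.

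With 2 libraries a group, 1 of them far from the rest, changes within the intervals given could be missed, and larger ones too. MRAS, with an interval of 0.375- to 0.959-fold, did not pass the test (adjusted p = 0.951, edgeR). The intervals of all 7 genes include no change, and that of BRAF spans 0.542- to 1.5-fold. The genes had 431 to 4010 counts per library. TPM levels inherit the length used for each gene, which for BRAF was not the deposited one. RNA levels say nothing of protein or phosphorylation.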
